A study of Mus musculus with 64 samples.

Results

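Hippocampal RNA of NOD/ShiLtJ and NZO/HlLtJ mice, the inbred strains of the set that are used as models of diabetes, was compared with that of C57BL/6J, 129S1/SvImJ and A/J, the other classical inbred strains. The comparison used 40 of the 64 bulk RNA sequencing libraries of the series, chosen by the strain named in the labels: 16 libraries of 2 diabetes-prone strains against 24 of 3 comparison strains. Each strain gave 4 female and 4 male libraries, strains were weighted equally, and the sexes were balanced. The remaining 24 libraries, from the wild-derived strains CAST/EiJ, PWK/PhJ and WSB/EiJ, entered the fit and are shown as levels only. All mice were inbred and no treatment or engineered allele was named. The labels used here gave no age, diet, body weight, glucose level or diabetic state, and did not say whether a library came from 1 animal. A strain's predisposition is therefore background, and not a measured state of these mice. Sample numbers in the labels ran by strain and, within strain, by sex, so strain and anything that goes with those numbers cannot be told apart. The labels used here do not say what the numbers stand for.

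NOD/ShiLtJ mice develop autoimmune diabetes, in which T cells destroy the insulin-producing beta cells of the pancreas. Their major histocompatibility complex (MHC) haplotype is the strongest known locus of that susceptibility, and females are affected more often. NZO/HlLtJ mice carry a polygenic obesity with insulin resistance, and males are the sex that mainly becomes diabetic. The hippocampus is not the organ in which either disease starts. It does express insulin receptors, makes its own cholesterol because lipoproteins do not cross from the blood, and holds the microglia and astrocytes that produce complement in the brain.

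The compared libraries held 18981914 to 27759221 counts each (median 22348907.5). Markers of dentate granule, CA1 and CA2 or CA3 pyramidal neurons all passed the count filter (14 of 14, 10 of 10 and 14 of 14). The summed CA1 markers stood at 827 to 1237 CPM in the prone and 856 to 1159 CPM in the comparison libraries, where CPM stands for counts scaled to a common library size. Choroid plexus markers differed widely between single libraries of every strain, from 205 to 5752 CPM in the prone and from 169 to 5404 CPM in the comparison libraries. Their summed level had a median of 1625 CPM in the prone and 292.7 CPM in the comparison libraries. All 15 had a fitted log2 fold change above 0, with a median of 0.53, and none passed the test. With choroid plexus level as a covariate 373 genes were called in place of the 390 given below. A total of 4 compared libraries had the lowest median correlation with their own strain (0.978 to 0.986 against 0.986 to 0.991 for the others): 129S1/SvImJ female 1, A/J male 2, NOD/ShiLtJ female 1 and C57BL/6J male 4. Without them 399 genes were called, and without C57BL/6J, the strain of the mouse reference genome, 444 were. Whether reads were aligned to that reference or to strain genomes was not given in the sources used here.

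Of 17382 genes tested, 390 differed between the prone and the comparison strains at an adjusted p below 0.05 and an absolute log2 fold change of at least 1, which is 2.24% of all genes. A total of 247 (1.42%) were higher and 143 (0.823%) lower in the prone strains. Most were rare transcripts, since 267 of the 390 lay below 2 CPM in both sets of strains, and 261 were protein coding. Without a fold minimum 6019 genes passed, 3080 higher (17.7%) and 2939 lower (16.9%), with a median absolute log2 fold change of 0.21 among them. These p-values come from edgeR's quasi-likelihood test, in which libraries are the replicates, and so they measure the spread between libraries of a strain.

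A set of 5 strains is small, and few genes separated them by set. In 207 of the 390 called genes (53.1%) both prone strain means lay outside the range of the 3 comparison strain means. The share over all genes was not computed, and calling on the difference between set means favours such genes. In 164 (42.1%) NOD/ShiLtJ and NZO/HlLtJ also differed from each other by at least a log2 fold change of 1, against 4.18% of all genes. Only 21 called genes (0.121% of those tested), 13 higher and 8 lower, had all 16 prone libraries outside the range of the 24 others. At any fold this held for 35 genes (0.201%). When the counts of each strain were summed and the 5 strains served as replicates, 3 genes passed edgeR's test (adjusted p = 1.25e-05 for Tpm3-rs7, 0.0329 for Tpm3 and 0.0329 for Fam205c), 2 of them with the fold minimum, and 1270 genes (7.31%) had an unadjusted p below 0.05. With 2 strains against 3, the smallest p an exact permutation of strains can give is 0.1. Over all genes the median absolute log2 difference between NOD/ShiLtJ and NZO/HlLtJ was 0.12. It was 0.123 to 0.138 between a prone and a comparison strain and 0.108 to 0.124 between comparison strains.

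The gene with the widest gap was Tpm3-rs7, a sequence closely related to the tropomyosin gene Tpm3. Its level was 65.5 to 75.2 CPM in NOD/ShiLtJ (median 70.7) and 67.0 to 76.1 CPM in NZO/HlLtJ (median 72.1). In the 24 comparison libraries it lay between 0.101 and 1.18 CPM (median 0.52). The prone strains were thus higher without overlap, by 7.08 on the log2 scale (edgeR adjusted p = 1.74e-59, SE 0.0709). Tpm3 itself, which encodes an actin-binding tropomyosin, went the other way. It lay at 70.3 to 87.4 CPM in the prone libraries (median 77.2) and at 136 to 172 CPM in the comparison libraries (median 152), lower by a log2 fold change of -0.98 (edgeR adjusted p = 2.88e-38, SE 0.0252). The sum of both genes was 149 ± 6.23 CPM (SD, n = 16) in the prone and 153.5 ± 9.63 CPM (n = 24) in the comparison strains, with 47.95% and 0.348% of it counted to Tpm3-rs7. WSB/EiJ and PWK/PhJ had the pattern of the prone strains, with shares of 47.6% and 43.4%, and CAST/EiJ lay between at 16.7%. Reads of so similar a pair can be assigned to either gene, so each level is uncertain.

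**Figure D1:**
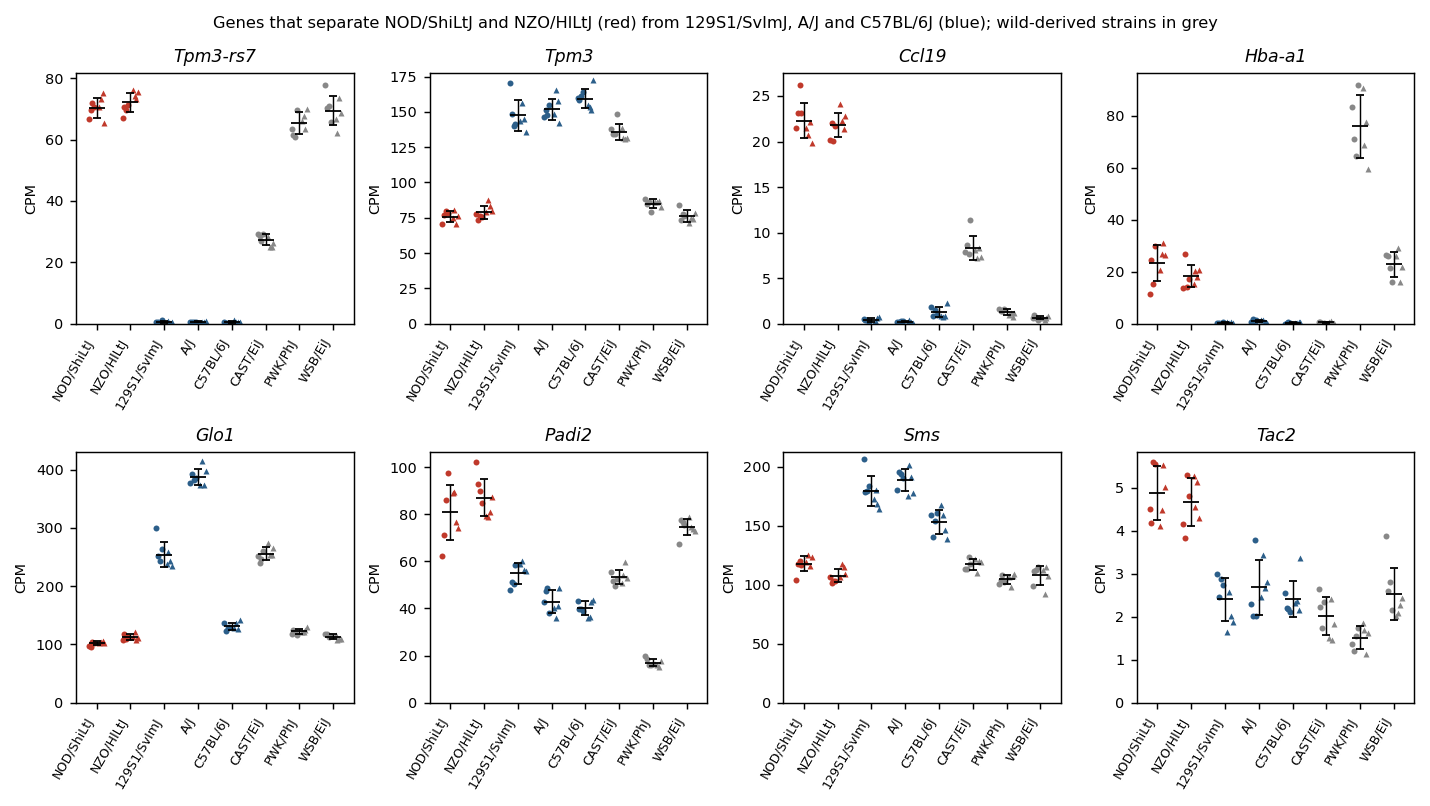
Level in CPM (linear axis from 0) of 8 genes in each of the 64 libraries by strain, with circles for females, triangles for males, and bars for the mean and SD over 8 libraries. Red points (NOD/ShiLtJ, NZO/HlLtJ) and blue points (129S1/SvImJ, A/J, C57BL/6J) do not overlap in any panel, while the grey wild-derived strains fall on either side, for Tpm3-rs7 near the red ones (65.3 and 69.4 CPM on average in PWK/PhJ and WSB/EiJ).

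Ccl19, a chemokine that draws lymphocytes and dendritic cells carrying the receptor Ccr7, was at 19.9 to 26.2 CPM in NOD/ShiLtJ (median 21.8) and 20 to 24.1 CPM in NZO/HlLtJ (median 21.8). The comparison libraries lay at 0.092 to 2.22 CPM (median 0.417). All prone libraries were above all others, by 5.48 on the log2 scale (edgeR adjusted p = 8.69e-45, SE 0.103). Ccl19 lies in the chromosome 4 stretch described below, whose genes exist in near-identical copies, so its level is uncertain. CAST/EiJ was intermediate at 8.3 ± 1.33 CPM (SD, n = 8), and WSB/EiJ and PWK/PhJ were at 0.629 ± 0.172 and 1.25 ± 0.32 CPM. Markers of T and B lymphocytes were scarce, and 5 of 16 passed the count filter. Their sum was 9.53 to 21.0 CPM in the prone and 7.62 to 21.3 CPM in the comparison libraries. Of the 5, 2 rose (40%, against 17.7% of all genes): Ighm by 0.45 and Ptprc by 0.26 on the log2 scale (edgeR adjusted p = 8.95e-06 and 0.00996). Whether lymphocytes differed in number was not tested.

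Hba-a1, one of the adult alpha-globin genes, was at 11.3 to 31.2 CPM in the prone libraries (median 20.3) and 0 to 1.79 CPM in the comparison libraries (median 0.53). The sets did not overlap and the log2 fold change was 5.33 (edgeR adjusted p = 2.65e-30, SE 0.178). Of the wild-derived strains, WSB/EiJ was at the prone level (22.8 ± 4.88 CPM, SD, n = 8). PWK/PhJ was above it at 75.9 ± 12.01 CPM, and CAST/EiJ was at 0.453 ± 0.344 CPM. The near-identical partner of Hba-a1, Hba-a2, took the larger part of the globin counts in both the prone and the comparison set. The sum of the pair was 77.4 ± 23.4 CPM (SD, n = 16) in the prone and 75.4 ± 30.1 CPM (n = 24) in the comparison strains, with 72.9% and 99% of it counted to Hba-a2. The separate levels are uncertain for the same reason as those of Tpm3.

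Glo1, which encodes glyoxalase 1, the enzyme that detoxifies the glycolytic by-product methylglyoxal, was lower in both prone strains. It lay at 95.5 to 106 CPM in NOD/ShiLtJ (median 103) and 107 to 122 CPM in NZO/HlLtJ (median 111). The comparison strains spread widely, with medians of 129 CPM in C57BL/6J, 248 CPM in 129S1/SvImJ and 384 CPM in A/J. Although the lowest comparison library, at 122.5 CPM, was above the highest prone one, at 121.5 CPM, C57BL/6J was nearer to the prone strains than to A/J. The log2 fold change was -1.13 (edgeR adjusted p = 3.17e-43, SE 0.0231). Runs were built from at least 4 called genes with neighbouring starts at most 500000 bases apart. The share called within a run is therefore high by construction. Glo1 opens a run of 8 called genes among the 10 tested genes of that stretch of chromosome 17, against 2.24% of all genes. Of the 8, 7 were lower in the prone strains. The Glo1 neighbour Dnah8, an axonemal dynein, had medians of 1.1 CPM in NOD/ShiLtJ, 1.12 in NZO/HlLtJ, 0.863 in C57BL/6J, 2.75 in 129S1/SvImJ and 6.13 in A/J, so its sets overlapped. Umodl1, a uromodulin-like gene of the same run, was at 0.185 to 0.921 CPM in the prone and 1.14 to 3.54 CPM in the comparison libraries without overlap (log2 fold change -1.97, SE 0.157, edgeR adjusted p = 1.05e-15).

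The longest run of called genes lay on chromosome 4. Between Gm13307 and Gm26881, 16 of 27 tested genes were called, against 2.24% of all genes. Of these 16, 15 were higher and 1 lower in the prone strains, with a median log2 fold change of 2.10. Only Gm20878, Gm3892, Ccl19 and Fam205c separated the sets without overlap. The others overlapped, and some set means were close (prone against comparison, SD over libraries). Gm3893 was at 3.17 ± 1.75 against 2.38 ± 3.19 CPM (log2 fold change 3.01). Fam205a4 was at 2.13 ± 0.8 against 1.57 ± 1.47 CPM (1.71), and Fam205a3 at 2.31 ± 0.867 against 1.71 ± 1.6 CPM (1.68). The run held Ccl19, Il11ra2 (a second copy of the interleukin 11 receptor alpha gene), and Fam205a1, Fam205a2, Fam205a3, Fam205a4 and Fam205c. Gm3892, annotated as antisense, whose reads cannot be told from those of an overlapping gene because strand was not given in the sources used here, was at 42.9 to 76.3 CPM in the prone and 0.915 to 33.5 CPM in the comparison libraries (log2 fold change 3.09, edgeR adjusted p = 2.88e-38). Fam205c was the gene that went down, from 1.06 to 5.11 CPM in the comparison libraries (median 3.41) to 0 to 0.309 CPM in the prone ones (median 0.0939), without overlap (log2 fold change -4.87, SE 0.24, edgeR adjusted p = 2.59e-24). Genes of this run exist in near-identical copies, so the level of each is uncertain. A second run, on chromosome 14, held 13 called genes among 22 tested, 6 higher and 7 lower, nearly all unnamed Gm loci. The order of genes was taken from the mouse annotation GENCODE M21. The runs were found after the calls were known, and each begins and ends at a called gene.

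**Figure D2:**
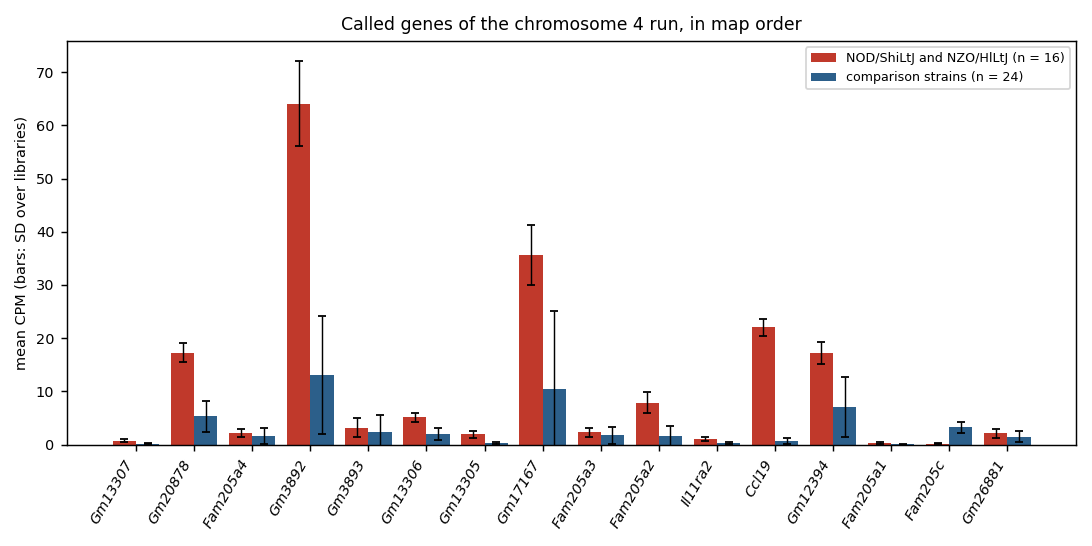
Mean level in CPM (linear axis from 0) of the 16 called genes of the chromosome 4 run in map order, for 16 prone (red) and 24 comparison (blue) libraries, with SD over libraries as bars. The red bar is the taller for 15 genes and the shorter for Fam205c, and Gm3892 is the most abundant at 64.1 against 13.1 CPM.

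Of the other genes without overlap, Vmn2r97, a vomeronasal receptor gene, was at 10.8 to 14.1 CPM in the prone and 1.10 to 10.6 CPM in the comparison libraries (log2 fold change 1.51, SE 0.0636, edgeR adjusted p = 1.07e-27). A/J, at 9.56 ± 0.911 CPM (SD, n = 8), was much nearer to the prone strains than 129S1/SvImJ at 1.67 ± 0.38 CPM. The following genes were chosen after their values were seen, because they separated the sets at a low level or a small fold. Il12rb2, the signalling chain of the interleukin 12 receptor, was at 0.75 to 1.56 CPM in the prone and 0 to 0.414 CPM in the comparison libraries (log2 fold change 2.95). Padi2, which converts arginine in proteins to citrulline, was at 62.1 to 102 CPM against 35.9 to 60 CPM (log2 fold change 0.88), and WSB/EiJ, at 74.7 ± 3.58 CPM, lay within the prone range. Tac2, the precursor of neurokinin B, was at 3.82 to 5.6 CPM against 1.64 to 3.78 CPM (log2 fold change 0.94). Sms, which makes spermine, was lower, at 101 to 125 CPM against 138 to 207 CPM (log2 fold change -0.62), and the wild-derived strains, at 104.6 to 117 CPM on average, were on the prone side. The edgeR adjusted p was 1.31e-17 for Il12rb2, 5.36e-26 for Padi2, 3.21e-15 for Tac2 and 1.35e-26 for Sms. Of the 35 genes without overlap, 14 had none of the 3 wild-derived strains nearer to the prone than to the comparison strains, and 3, Tpm3-rs7 and Sms among them, had all of them nearer.

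NZO/HlLtJ and NOD/ShiLtJ also differed from each other. A total of 727 genes (4.18%) were called between them, 380 higher and 347 lower in NZO/HlLtJ. Against the comparison strains, which both tests share, 561 genes (3.23%) were called for NOD/ShiLtJ and 538 (3.1%) for NZO/HlLtJ. Several called genes of the pooled comparison rested on a single strain.

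Crym, the thyroid hormone-binding mu-crystallin, was low in NOD/ShiLtJ alone, at 5.21 to 5.98 CPM (median 5.64) against 182 to 227 CPM in NZO/HlLtJ (median 196) and 115 to 275 CPM in the comparison libraries (median 204). The log2 fold change between NZO/HlLtJ and NOD/ShiLtJ was 5.13 (edgeR adjusted p = 1.48e-42). Glp2r, the receptor of the intestinal peptide GLP-2, was at 7.67 to 17.2 CPM in NOD/ShiLtJ (median 9.84), 0.657 to 1.41 CPM in NZO/HlLtJ (median 0.752) and 0.357 to 3.94 CPM in the comparison libraries. NOD/ShiLtJ was above the comparison strains by 3.38 on the log2 scale (edgeR adjusted p = 1.65e-32), while NZO/HlLtJ was not distinguished from them (-0.20, adjusted p = 0.379). Ovgp1, an oviductal glycoprotein gene, was at 0 to 0.138 CPM in NZO/HlLtJ and 1.68 to 5.38 CPM in NOD/ShiLtJ, the latter within reach of the comparison range of 1.30 to 4.55 CPM. Lefty1, an antagonist of Nodal signalling, was at 6.83 to 11.7 CPM in NOD/ShiLtJ and at most 0.138 CPM in NZO/HlLtJ. The comparison strains were themselves split, with A/J at most at 0.0958 CPM and 129S1/SvImJ and C57BL/6J at 8.10 to 16.4 CPM, so the pooled log2 fold change of -1.59 (edgeR adjusted p = 0.00349, SE 0.44) lay between 2.07 for NOD/ShiLtJ and -5.26 for NZO/HlLtJ. The histone gene Hist2h2aa1, which has near-identical copies and is uncertain, was at 0 to 0.399 CPM in NOD/ShiLtJ and 0 to 3.08 CPM in NZO/HlLtJ, with the comparison libraries at 0.303 to 5.41 CPM.

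**Figure D3:**
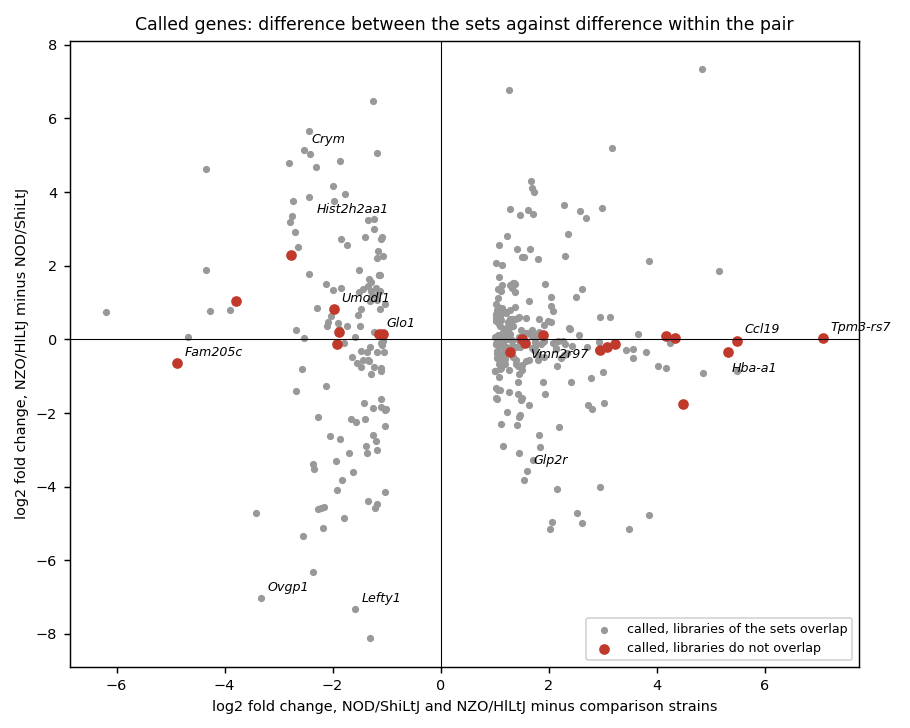
Each of the 390 called genes by its log2 fold change between the prone and comparison strains (x) and between NZO/HlLtJ and NOD/ShiLtJ (y), with the 21 genes whose libraries do not overlap in red. Crym (-2.53 on x, 5.13 on y) and Lefty1 (-1.59, -7.33) lie far from 0 on the y axis, while the red Tpm3-rs7 (7.08, 0.03) lies near it.

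Cholesterol synthesis genes had the highest share of lower members among the 42 lists of at least 10 tested genes. Of 22 measured members, 16 fell and none rose, against 16.9% and 17.7% of all genes, and the median log2 fold change was -0.21 against 0.00587 over all genes. The enzymes of this pathway are transcribed under the sterol-sensing factor Srebf2, which acts on promoters together with NF-Y, the factor that binds CCAAT boxes. RefSeq (build GRCm38.p6) gave promoters for 17 of the 22 genes. In the 250 bases before the start, CCAAT stood on either strand (CCAAT or ATTGG) in 16 of the 17, against 37.5% of all 27025 genes in the table and 33.8% of its promoters. Those 16 included Lss, Cyp51, Hsd17b7, Nsdhl and Pmvk, which did not pass the test, so CCAAT did not separate members that fell from the others. The sterol element core CACCCCAC, or its reverse complement GTGGGGTG, stood in 1 of the 17 (Hmgcs1), against 2.98% of genes. The promoters of the 4 members with the smallest p that had an entry, and that of Hmgcs1, are shown 5′ to 3′ with both motifs in capitals. Their positions are chr9:42264301-42264550, minus strand, for Sc5d, chr8:64733579-64733828, minus strand, for Msmo1, chr8:122443423-122443672, minus strand, for Mvd, chr15:82147019-82147268, plus strand, for Srebf2, and chr13:119690101-119690350, plus strand, for Hmgcs1.
Sc5d: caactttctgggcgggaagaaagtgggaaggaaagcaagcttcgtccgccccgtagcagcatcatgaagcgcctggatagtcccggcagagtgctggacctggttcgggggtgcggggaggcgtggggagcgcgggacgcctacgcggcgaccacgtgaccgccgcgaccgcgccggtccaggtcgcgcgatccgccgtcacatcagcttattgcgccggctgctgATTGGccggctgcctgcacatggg
Msmo1: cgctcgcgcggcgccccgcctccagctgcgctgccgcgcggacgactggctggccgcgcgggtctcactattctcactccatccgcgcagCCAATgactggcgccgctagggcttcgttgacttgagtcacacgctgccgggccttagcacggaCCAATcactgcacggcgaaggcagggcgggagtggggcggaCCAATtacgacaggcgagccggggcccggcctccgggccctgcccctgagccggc
Mvd: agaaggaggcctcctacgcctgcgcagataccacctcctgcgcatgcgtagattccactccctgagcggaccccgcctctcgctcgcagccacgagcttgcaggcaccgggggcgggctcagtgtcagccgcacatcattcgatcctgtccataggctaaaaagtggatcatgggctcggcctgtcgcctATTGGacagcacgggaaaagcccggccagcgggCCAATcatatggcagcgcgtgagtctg
Srebf2: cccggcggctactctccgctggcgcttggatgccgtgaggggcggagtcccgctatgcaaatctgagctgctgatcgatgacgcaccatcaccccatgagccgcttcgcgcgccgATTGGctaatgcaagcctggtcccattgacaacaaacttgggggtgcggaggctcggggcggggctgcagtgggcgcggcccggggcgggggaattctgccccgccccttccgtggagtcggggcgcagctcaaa
Hmgcs1: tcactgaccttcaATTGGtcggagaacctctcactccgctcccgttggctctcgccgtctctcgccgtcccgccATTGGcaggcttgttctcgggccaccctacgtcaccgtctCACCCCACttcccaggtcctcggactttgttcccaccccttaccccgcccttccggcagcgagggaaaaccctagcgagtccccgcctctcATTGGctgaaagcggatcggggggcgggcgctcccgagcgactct
A match is a run of letters in the reference sequence and says nothing of binding in these strains.

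Sc5d, which encodes lathosterol oxidase near the end of the pathway, was at 29.4 to 51.8 CPM in NOD/ShiLtJ (median 46.8), 46.8 to 55.1 CPM in NZO/HlLtJ (median 52.2) and 52.4 to 71.8 CPM in the comparison libraries (median 60.2). All NOD/ShiLtJ libraries were below all comparison libraries, and those of NZO/HlLtJ overlapped them. The log2 fold change was -0.34 (edgeR adjusted p = 1.9e-08, SE 0.046), with -0.46 in NOD/ShiLtJ and -0.22 in NZO/HlLtJ. Mvd, the mevalonate diphosphate decarboxylase, was at 9.62 to 16.8 CPM in NOD/ShiLtJ (median 14.7), 13.1 to 14.7 CPM in NZO/HlLtJ (median 13.7) and 13.6 to 24.2 CPM in the comparison libraries (median 17.5), a log2 fold change of -0.36 (edgeR adjusted p = 3.06e-06, SE 0.06). Its sets overlapped. Msmo1, a sterol C4 demethylase, fell by 0.34 on the log2 scale, Fdft1, squalene synthase, by 0.27, and Idi1, isopentenyl diphosphate isomerase, by 0.32 (edgeR adjusted p at most 1.03e-05). Sqle, which encodes squalene epoxidase, fell by 0.25 and Hmgcs1, the cytosolic synthase at the pathway's start, by 0.22 (edgeR adjusted p at most 0.000548). Srebf2 itself fell by 0.21 (edgeR adjusted p = 5.3e-06). Lss, Cyp51, Hsd17b7, Nsdhl, Pmvk and Scap did not pass, with log2 fold changes of -0.10 to 0.06. Next to Idi1 on chromosome 13, with no tested gene between them, Idi2 was without overlap higher at 0.199 to 0.681 CPM in the prone and 0 to 0.133 CPM in the comparison libraries (log2 fold change 4.17, edgeR adjusted p = 3.77e-15).

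The mean log2 CPM over the 22 genes was 4.93 to 5.50 in NOD/ShiLtJ (median 5.45), 5.32 to 5.48 in NZO/HlLtJ (median 5.4) and 5.42 to 5.70 in the comparison libraries (median 5.56). All 16 prone libraries were below the median of the 24 and 9 were below the lowest of them. NOD/ShiLtJ females 1 and 2, at 4.93 and 5.12, stood well below the other 14 prone libraries (5.32 to 5.50). Without these 2 libraries 14 members fell. In females alone 15 fell and in males alone 6, and leaving out a whole strain gave 15 to 17. With choroid plexus level as a covariate 14 fell, and with strains as replicates 0 did. Choroid plexus markers averaged 4.33 and 4.88 log2 CPM in those 2 females, inside the range of 1.29 to 5.69 of the other prone libraries. None of the 22 separated the sets without overlap.

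**Figure D4:**
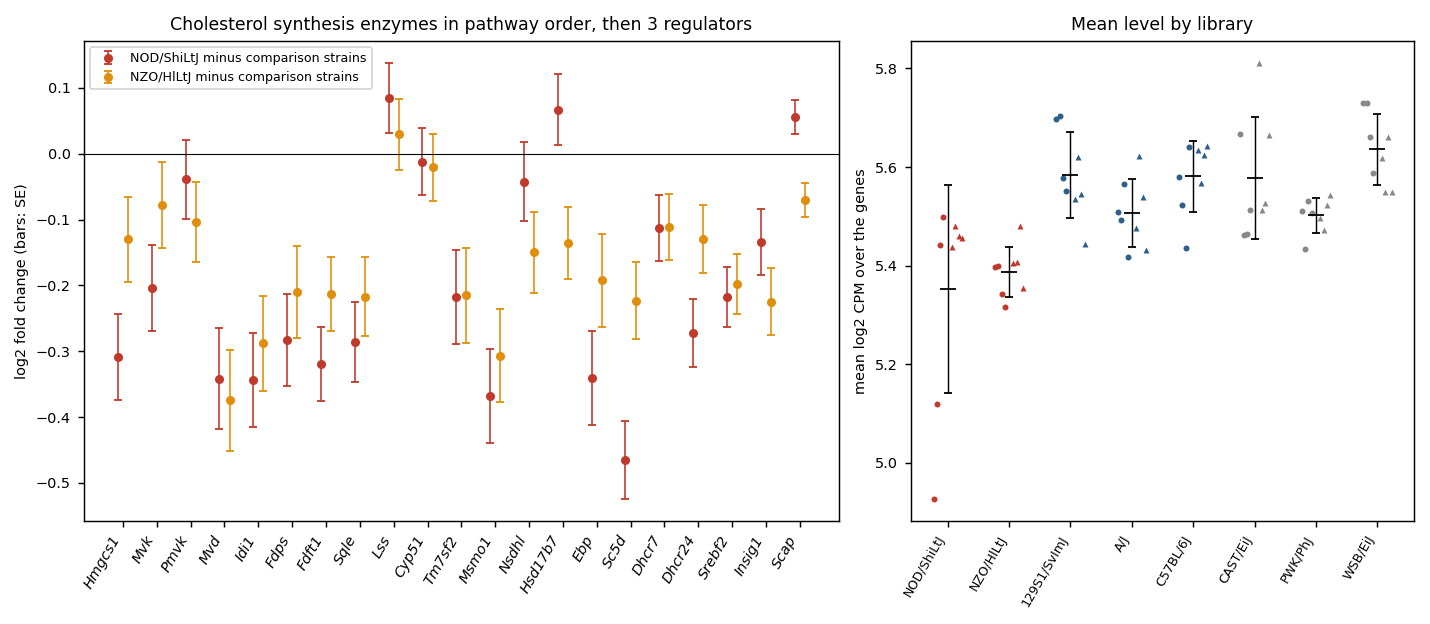
Left, log2 fold change of 21 of the 22 cholesterol synthesis genes in NOD/ShiLtJ (red) and NZO/HlLtJ (orange) against the comparison strains, with SE as bars; both share the comparison libraries. Right, mean log2 CPM over the genes in each library by strain (circles females, triangles males, bars mean and SD, n = 8), where the 2 lowest points, 4.93 and 5.12, are NOD/ShiLtJ females.

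Among immediate early genes, which neurons switch on within minutes of activity, 8 of 18 members fell (44.4%, against 16.9% of all genes), none rose and 10 did not pass. The median log2 fold change was -0.15. Egr1, a zinc finger factor, was at 52.4 to 108 CPM in NOD/ShiLtJ (median 69.6), 68.6 to 95.0 CPM in NZO/HlLtJ (median 72.4) and 73.9 to 126 CPM in the comparison libraries (median 108). Its sets overlapped and the log2 fold change was -0.48 (edgeR adjusted p = 0.000754, SE 0.113). Fos fell by 0.71 (SE 0.205, adjusted p = 0.00539), Egr4 by 0.38 and Nr4a2 by 0.28 (edgeR adjusted p = 0.00125 and 0.00507). The count was 0 in females alone and 6 in males alone, 3 without NZO/HlLtJ, 5 without 129S1/SvImJ, and 4 with choroid plexus level as a covariate. Leaving out single libraries gave 5 to 9, the lowest without NOD/ShiLtJ female 2. The labels used here gave no hour or handling of the mice.

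Genes of the unfolded protein response, induced when proteins misfold in the endoplasmic reticulum, fell in 10 of 27 cases (37%, against 16.9% of all genes) and rose in 1 (median log2 fold change -0.14). Asns, asparagine synthetase, fell by 0.22, Atf4, the factor that induces it, by 0.19, and the membrane protein gene Herpud1 by 0.18 (edgeR adjusted p = 1.33e-07, 0.00022 and 0.000199). Edem1, of the degradation pathway for misfolded proteins, rose by 0.21 (edgeR adjusted p = 8.4e-07). Herpud1 did not pass in females alone or without NOD/ShiLtJ, and Atf4 did not pass without C57BL/6J.

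Of 18 complement genes 9 rose (50%, against 17.7% of all genes), none fell and 9 did not pass. The median log2 fold change was 0.30, with 0.38 for NOD/ShiLtJ and 0.057 for NZO/HlLtJ. The mean log2 CPM over the list was 2.35 in NOD/ShiLtJ and 2.05 in NZO/HlLtJ. It was 2.12 in C57BL/6J, 1.89 in A/J and 1.61 in 129S1/SvImJ. C1qb and C1qc, chains of the recognition molecule C1q, were among those that did not pass, with log2 fold changes of 0.03 and 0.02. C4b, a component of the classical pathway that lies in the MHC, was at 45.6 to 67.8 CPM in NOD/ShiLtJ (median 62), 72.8 to 97.4 CPM in NZO/HlLtJ (median 81.7) and 16.9 to 56.4 CPM in the comparison libraries (median 38.1). NZO/HlLtJ was above every comparison library and NOD/ShiLtJ overlapped them, with medians of 22.4 CPM in 129S1/SvImJ, 38.7 in C57BL/6J and 46.7 in A/J. The log2 fold change was 1.02 (edgeR adjusted p = 3.44e-25, SE 0.0483). Reads of C4b can be shared with its copy C4a, so its level is uncertain. Cd59a, an inhibitor of the membrane attack complex, was at 10.3 to 16.6 CPM in NOD/ShiLtJ (median 13.6), 7.60 to 12.5 CPM in NZO/HlLtJ (median 8.98) and 2.30 to 11.8 CPM in the comparison libraries (median 5.02). It overlapped and had a log2 fold change of 1.18 (edgeR adjusted p = 6.02e-12, SE 0.118). C3, the central component, rose by 0.72 and Itgam, a chain of complement receptor 3, by 0.35 (edgeR adjusted p = 9.66e-05 and 1.59e-07), but C3 did not pass without NOD/ShiLtJ, nor Itgam without 129S1/SvImJ. The count of risen members was 5 without 129S1/SvImJ and 4 in females alone.

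Of 14 astrocyte markers 8 rose (57.1%, against 17.7% of all genes) and 1 fell (median log2 fold change 0.19). Their summed level was 6184 to 8492 CPM in the prone and 5147 to 6929 CPM in the comparison libraries. The mean log2 CPM over the list was 7.81 in NZO/HlLtJ, but NOD/ShiLtJ, at 7.67, was level with C57BL/6J at 7.66. A/J was at 7.62 and 129S1/SvImJ at 7.54. Of the wild-derived strains, CAST/EiJ (7.92) and PWK/PhJ (7.84) were above both prone strains and WSB/EiJ (7.62) was below them. Gfap, the astrocyte intermediate filament, was at 398 to 512 CPM in NOD/ShiLtJ (median 414), 368 to 464 CPM in NZO/HlLtJ (median 426) and 255 to 406 CPM in the comparison libraries (median 329), a log2 fold change of 0.40 (edgeR adjusted p = 6.23e-14, SE 0.0356). NOD/ShiLtJ and NZO/HlLtJ overlapped the comparison libraries, mainly those of C57BL/6J at 344 to 406 CPM. The bicarbonate transporter Slc4a4 rose by 0.33, the growth factor receptor Fgfr3 by 0.22 and the glutamate transporter Slc1a2 by 0.29 (edgeR adjusted p at most 1.33e-05), the last not passing without NZO/HlLtJ. In bulk tissue, more cells of a type and more RNA per cell cannot be told apart.

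Of 15 microglia markers 8 rose (53.3%, against 17.7% of all genes) and 1 fell (median 0.12), but the count was 2 without 129S1/SvImJ and 13 without A/J. The mean log2 CPM over the list was 4.46 in NOD/ShiLtJ and 4.32 in NZO/HlLtJ. It was higher in A/J and C57BL/6J, at 4.52 each, and lower in 129S1/SvImJ, at 3.97. Their summed level was 449 to 590 CPM in the prone and 369 to 594 CPM in the comparison libraries. P2ry12, the purinergic receptor of resting microglia, rose by 0.20 and Sall1, a microglial identity factor, by 0.15 (edgeR adjusted p = 1.93e-05 and 4.11e-05). The marker that fell was Fcrls, an Fc receptor-like gene. Its median was 6.01 CPM in NOD/ShiLtJ, 3.29 in NZO/HlLtJ, 3.38 in 129S1/SvImJ, 8.41 in A/J and 24.9 in C57BL/6J, so a log2 fold change of -1.10 (edgeR adjusted p = 2.04e-19, SE 0.0712) covered comparison strains that lay on both sides of NOD/ShiLtJ. Thalamus and habenula markers, which a dissection can include, rose in 5 of 11 (45.5%, against 17.7% of all genes) and fell in none. Their sums were 181 to 246 CPM in the prone and 136 to 209 CPM in the comparison libraries. Meningeal fibroblast markers rose in 6 of 13 (46.2%, against 17.7% of all genes), or 3 of 13 with choroid plexus level as a covariate and 2 without NZO/HlLtJ. Dentate granule neuron markers fell in 6 of 14 (42.9%, against 16.9% of all genes) and rose in 1. The mean log2 CPM over these markers was 5.5 in NOD/ShiLtJ, but NZO/HlLtJ, at 5.62, was level with A/J at 5.62. It was 5.66 in 129S1/SvImJ and 5.81 in C57BL/6J. Of 74 nuclear oxidative phosphorylation genes 17 fell, or 23% (11 without C57BL/6J male 4, 26 without 129S1/SvImJ female 3), or 8 without the 4 libraries that stood apart. Of 81 ribosomal protein genes 15 fell and 1 rose, or 7 fell without those libraries. Their share of 18.5% lower was near the 16.9% over all genes. The part of these markers in the differences above was not tested.

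**Figure D5:**
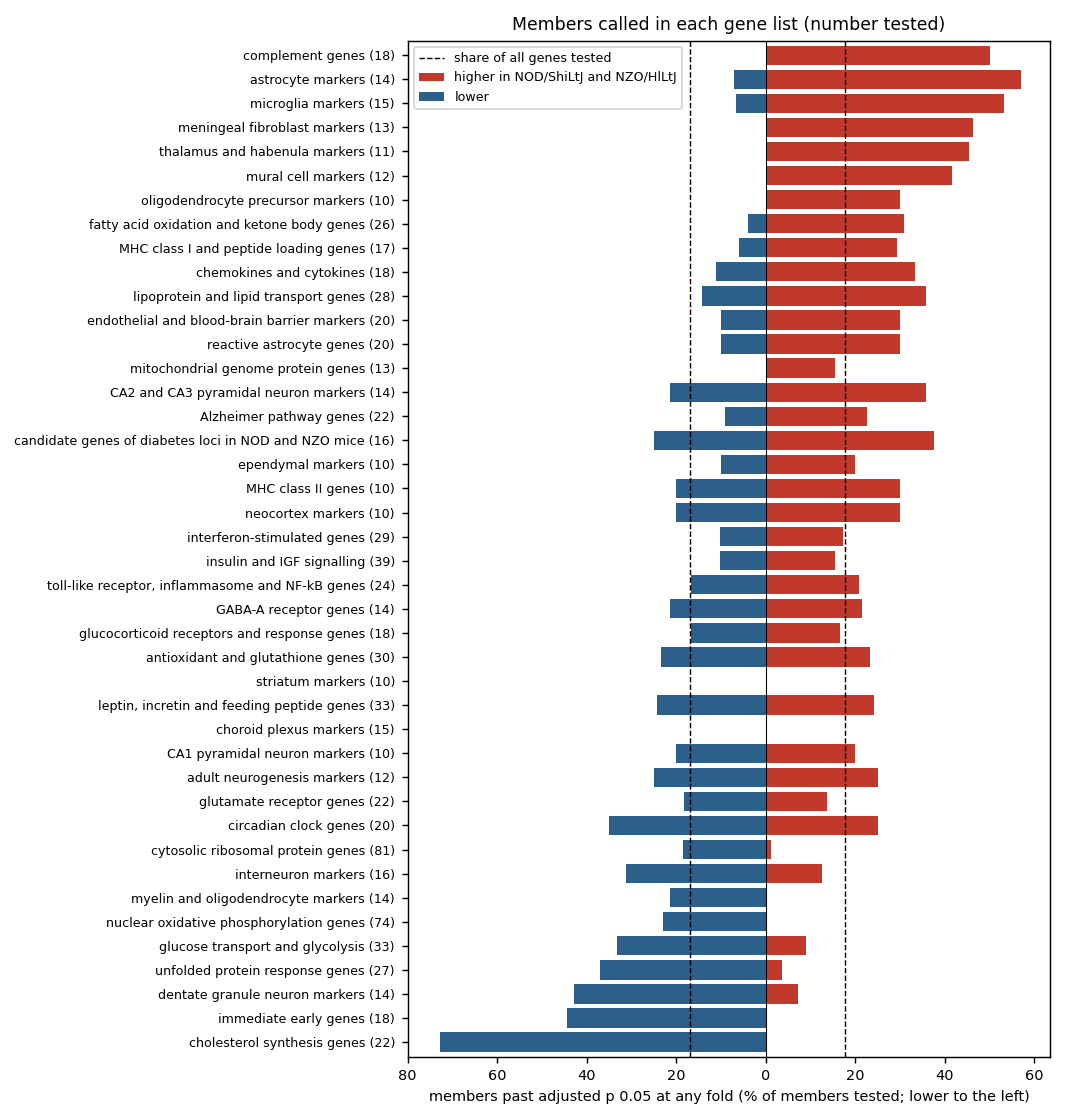
Share of tested members of 42 gene lists (those with at least 10 tested members, number in brackets) that passed an adjusted p of 0.05 at any fold, with members higher in the prone strains to the right and lower to the left. Dashed lines mark the shares over all genes, 17.7% and 16.9%; cholesterol synthesis genes reach 72.7% to the left and astrocyte markers 57.1% to the right.

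Genes of insulin and insulin-like growth factor signalling did not move as a group, with 6 of 39 higher (15.4%) and 4 lower (10.3%), near the shares over all genes, and a median log2 fold change of 0.04. Tbc1d4, an Akt substrate that controls the release of glucose transporter vesicles, was at 8.27 to 11.2 CPM in NOD/ShiLtJ, 9.63 to 13.8 CPM in NZO/HlLtJ and 2.66 to 12.2 CPM in the comparison libraries. It was higher by 0.53 (edgeR adjusted p = 3.8e-10, SE 0.0611) but did not pass without 129S1/SvImJ, whose median was 4.18 CPM against 10.7 in A/J. Foxo1, the transcription factor that insulin restrains, was at 53.6 to 67.9 CPM in the prone and 39.5 to 59.4 CPM in the comparison libraries and rose by 0.24 (edgeR adjusted p = 2.09e-06, SE 0.0393). The kinase Akt2 fell by 0.18 and Tsc2, a brake on mTOR, by 0.15 (edgeR adjusted p = 1.6e-05 and 0.000163), and Tsc2 did not pass without C57BL/6J or in females alone.

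Of 33 leptin, incretin and feeding peptide genes 8 were higher and 8 lower (24.2% each, against 17.7% and 16.9% of all genes). Their median log2 fold change was -0.04. Npsr1, the neuropeptide S receptor, was at 1.06 to 2.39 CPM in NOD/ShiLtJ (median 1.92), 6.76 to 9.20 CPM in NZO/HlLtJ (median 8.07) and 0.276 to 1.98 CPM in the comparison libraries (median 1.03). NZO/HlLtJ stood apart and NOD/ShiLtJ overlapped the comparison strains, with log2 fold changes of 2.90 and 0.70 (edgeR adjusted p = 2.98e-26 and 0.00035). Cck, the precursor of cholecystokinin, was at 148 to 220 CPM in the prone libraries (median 183) and 199.5 to 418 CPM in the comparison libraries (median 227). It fell by 0.40 (edgeR adjusted p = 4.1e-07, SE 0.0609), and its receptor gene Cckbr rose by 0.50 (edgeR adjusted p = 2.79e-06, SE 0.0827).

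Of 33 glucose transport and glycolysis genes 11 fell and 3 rose (median log2 fold change -0.01), or 33.3% and 9.09% against 16.9% and 17.7% of all genes. The count of fallen members ranged from 0 to 12 over 16 alternative settings and moved well away from 11 in 6 of them. The mean log2 CPM over the list was 6.82 in NOD/ShiLtJ and 6.88 in NZO/HlLtJ. It was 6.85 in A/J and 6.89 in both 129S1/SvImJ and C57BL/6J, so NZO/HlLtJ lay within the comparison strains. Pdk1, a kinase that inhibits pyruvate dehydrogenase, was at 29.7 to 34.1 CPM in NZO/HlLtJ (median 31.9), 50 to 58.5 CPM in NOD/ShiLtJ (median 54.3) and 46.0 to 59.9 CPM in the comparison libraries (median 51.8). Its log2 fold change was -0.71 in NZO/HlLtJ (edgeR adjusted p = 6.42e-24) and 0.04 in NOD/ShiLtJ (adjusted p = 0.370). Pygb, brain glycogen phosphorylase, was at 196 to 221 CPM in NOD/ShiLtJ and 291 to 324 CPM in NZO/HlLtJ, on either side of the comparison median of 280.4 CPM. The strain values were -0.38 and 0.18 (edgeR adjusted p = 6.37e-18 and 1.07e-07). The monocarboxylate transporters Slc16a7 and Slc16a1 fell by 0.29 and 0.20 (edgeR adjusted p = 4.27e-05 and 0.000153), the former not without NZO/HlLtJ.

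Of 28 lipoprotein and lipid transport genes 10 rose (35.7%) and 4 fell (14.3%), against 17.7% and 16.9% of all genes. Their median log2 fold change was 0.04. Lpl, lipoprotein lipase, was at 112 to 166 CPM in the prone libraries (median 136) and rose by 0.53 (edgeR adjusted p = 3.92e-15, SE 0.0435). The difference came with C57BL/6J, at 49.2 to 56.7 CPM, while 129S1/SvImJ and A/J were at 112 to 145 CPM, and it did not pass without C57BL/6J. Cd36, a fatty acid translocase, was at 1.01 to 3.54 CPM in the prone (median 3.05) and 0.911 to 2.99 CPM in the comparison libraries (median 1.49) and rose by 0.91 (edgeR adjusted p = 1.18e-10, SE 0.101). Lipg, endothelial lipase, rose by 0.73 but not without 129S1/SvImJ, and Fabp5, a fatty acid-binding protein, fell by 0.27 (edgeR adjusted p = 1.06e-10 and 4.71e-08).

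Candidate genes of diabetes loci in these strains were considered last: 6 of 16 were higher (37.5%) and 4 lower (25%), against 17.7% and 16.9% of all genes. Arntl2, a clock factor proposed for a NOD locus, was at 1.72 to 2.27 CPM in NOD/ShiLtJ (median 1.97), 3.04 to 4.32 CPM in NZO/HlLtJ (median 3.59) and 2.63 to 6.58 CPM in the comparison libraries (median 5.18). NOD/ShiLtJ lay below all others of the 5 strains, and C57BL/6J, with a median of 3.4 CPM, was at the level of NZO/HlLtJ. The log2 fold change was -0.81 (edgeR adjusted p = 2.84e-15, SE 0.0662), with -1.24 in NOD/ShiLtJ and -0.38 in NZO/HlLtJ. Socs2, an inhibitor of growth hormone signalling, rose by 0.24 and the Fc gamma receptor gene Fcgr1 by 0.43 (edgeR adjusted p = 2.11e-08 and 9.89e-06), the latter not without NOD/ShiLtJ. Among MHC class I and peptide loading genes 5 of 17 rose (29.4%, against 17.7% of all genes) and 1 fell (5.88%, against 16.9%). The one that fell was H2-K1, at 8.23 to 19.0 CPM in the prone (median 12.6) and 9.37 to 33.3 CPM in the comparison libraries (median 18.9; log2 fold change -0.51, edgeR adjusted p = 2.92e-06). The loading factors Tapbp and Tap2 rose by 0.20 and 0.22 (edgeR adjusted p = 0.000558 and 0.00162), but Tapbp did not pass without NZO/HlLtJ, nor Tap2 without 129S1/SvImJ. Of 10 MHC class II genes 3 rose (30%) and 2 fell (20%), against 17.7% and 16.9% of all genes. The prone strains went opposite ways, with a median log2 fold change of -0.2 in NOD/ShiLtJ and 0.43 in NZO/HlLtJ. H2-DMa, which loads peptides on class II, was at 14.3 to 18.0 CPM in NOD/ShiLtJ, 22.4 to 26.6 CPM in NZO/HlLtJ and 11.1 to 17.1 CPM in the comparison libraries (log2 fold change 0.52, edgeR adjusted p = 1.18e-15). MHC alleles differ between strains, and how reads of other alleles than the reference were counted was not given in the sources used here. Of 29 interferon-stimulated genes 5 rose and 3 fell, and the shares of 17.2% and 10.3% were near or below those over all genes.

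The difference between prone and comparison strains was also tested for a difference between the sexes. This contrast pools NOD/ShiLtJ and NZO/HlLtJ, so sex differences of opposite direction in the pair would cancel in it, and each strain's own was not tested. A total of 6 genes (0.0345%) passed edgeR's test, among them Sf3b4, Pik3r2, Adgrb2, Acap3 and Med25. None of the 6 differed by more than 0.304 on the log2 scale. Sf3b4, a splicing factor subunit, had a log2 fold change of 0.14 in females and -0.16 in males (difference 0.30, SE 0.0565, edgeR adjusted p = 0.0184). Without NOD/ShiLtJ females 1 and 2, no gene passed, and leaving out single libraries gave 0 (for example C57BL/6J male 1) to 12 (NOD/ShiLtJ female 2). Over all genes 1370 had an unadjusted p below 0.05 in this test, and DESeq2 called 38.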

How the data were processed

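The authors deposited 1 table of read counts per gene for 64 bulk RNA libraries of mouse hippocampus, 4 for each of 16 strain and sex groups. Per the submitters' processing notes, GRCm39 was used, and the name of the table points to Ensembl release 105. The aligner, the counting tool and the use of strand are not given in the sources used here. Symbols and gene order came from GENCODE M21, which matched 32146 of 32227 identifiers.

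Counts were tested with edgeR 4.0.16 in R 4.3.3 (TMM scaling, quasi-likelihood test, 1 mean per strain and sex, all 64 libraries, 48 residual degrees of freedom). The filter kept genes with at least 10 counts in enough libraries and 15 in all, which left 17382 genes (53.9%). Contrasts weighted strains equally and averaged the sexes, and p-values were adjusted by Benjamini-Hochberg over all tested genes. Nothing in the labels says that libraries of a group came from separate animals, so p-values measure the spread between these samples. Libraries replicate a strain, not a class of strains. The scripts were tested on simulated data.

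Named genes were protein coding with at least 2 CPM in the higher set: called genes without overlap, the 3 most positive and 3 most negative between NZO/HlLtJ and NOD/ShiLtJ, up to 4 members of a list with the smallest p, and 6 by sex. Other genes are named as members of their list or as chosen after their values were seen. The members and lists were chosen with earlier results of these data known. Alternatives were DESeq2 1.42.0, other scaling and filters, a choroid plexus covariate, single sexes, strains as replicates, and leaving out strains or libraries. The 2 alternatives that leave out libraries standing apart or low in cholesterol genes, the runs of genes, and the promoters shown were chosen after seeing the data. Values of some single genes are not reported here.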

Additional observations from a re-analysis of the deposited data

Results flagged for a closer look

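Single libraries stood far from the other 7 of their strain in 16 of 140 sets of 8 values tested, where chance flags about 1 in 20. Several came from the same libraries. In 129S1/SvImJ female 1, Glo1 was at 300.3 CPM (others 234.7 to 263.5) and Crym at 274.6 CPM (others 195.3 to 232). In A/J male 2, Hist2h2aa1 was at 5.41 CPM (others 1.38 to 2.99). Ovgp1 was at 5.38 CPM in NOD/ShiLtJ female 1 (others 1.68 to 3.42).

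Nuclear oxidative phosphorylation genes averaged 7.03 log2 CPM in 129S1/SvImJ female 1, 7.01 in A/J male 2 and 6.75 in C57BL/6J male 4. Ribosomal protein genes averaged 7.45, 7.43 and 7.21 log2 CPM in the same libraries. Their dentate granule neuron markers were the lowest of each strain, at 5.42, 5.26 and 5.59 log2 CPM. Insulin and insulin-like growth factor signalling genes averaged 5.39 log2 CPM in A/J male 2 (others 5.61 to 5.76). Lipid transport genes averaged 4.90 log2 CPM in 129S1/SvImJ male 3 (others 4.97 to 5.03), and feeding peptide genes 3.25 in NOD/ShiLtJ male 3 (others 3.06 to 3.13).

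The difference between prone and comparison strains itself differed between the sexes in 6 genes by edgeR's test. Among them, female minus male, it was 0.304 for Sf3b4, 0.226 for Pik3r2, 0.235 for Adgrb2, 0.249 for Acap3 and 0.252 for Med25 on the log2 scale.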

How the results depend on the processing

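The 390 called genes became 6019 with no fold minimum, 112 at an absolute log2 fold change of 2, 761 with no count filter, 82 with a mean of at least 50 counts and 2 with strains as replicates. Single libraries left out gave 390 to 424. The 21 genes without overlap became 35, 12 and 10 under no fold minimum, the higher minimum and the mean of 50 counts, 34 in females alone and 2 with strains as replicates. They became 136 without NOD/ShiLtJ, 118 without NZO/HlLtJ, 54 without C57BL/6J, 59 without 129S1/SvImJ and 44 without A/J, where fewer libraries must separate, and 21 to 22 without single libraries. The 727 genes between NZO/HlLtJ and NOD/ShiLtJ became 4571, 248 and 185 under the same 3 settings (717 to 760 without single libraries). For NOD/ShiLtJ the 561 became 5671, 171 and 126, and 1048 with no count filter (552 to 595). For NZO/HlLtJ the 538 became 5325, 163 and 129, and 955 with no count filter (528 to 570). The 6 genes by sex became 38 with DESeq2, 3 with other scaling, 0 with no count filter, 11 with a mean of 50 counts, 1 with only the 40 compared libraries, 0 without NOD/ShiLtJ females 1 and 2, and 0 to 12 without single libraries. The cause was not tested.

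The log2 fold change turned for Crym without NOD/ShiLtJ (0.0372), Lefty1 without NZO/HlLtJ (2.07), Ovgp1 without NZO/HlLtJ (0.17), Glp2r without NOD/ShiLtJ (-0.20), C1qa without NOD/ShiLtJ (-0.15) and without 129S1/SvImJ (-0.0105), Pdk1 without NZO/HlLtJ (0.0387), Pygb without NOD/ShiLtJ (0.18) and Tapbp without NZO/HlLtJ (-0.0041). No paired analysis was possible because replicate numbers were given in accession order and pair no libraries.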
